A study of Mus musculus with 6 samples.

Results

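The epithelial sodium channel, the sodium cotransporters of the distal nephron and the kinases and ligase that control them were followed in kidneys of KC-Tie2 and Control mice. The 10 genes were chosen by name: the channel subunits Scnn1a, Scnn1b and Scnn1g, the cotransporters Slc12a1 (NKCC2) and Slc12a3 (NCC), the kinases Wnk1, Wnk4, Stk39 (SPAK) and Sgk1, and the ubiquitin ligase gene Nedd4l. All 10 were found among the 17550 genes of the deposited table, and all 10 were among the 17539 genes tested. The KC-Tie2 mouse is used to model psoriasis: its transgene puts Tie2, an angiopoietin receptor, into keratinocytes, and the kidney is not its target tissue. The groups were 3 libraries of the genotype KC-Tie2 and 3 of the genotype Control, all from saline-perfused whole kidney, read as poly(A)-selected RNA. The labels give no allele, promoter, strain, sex or age for either genotype, nor do they state that the libraries are from different animals. The p-values therefore describe only how these samples spread.

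In the thick ascending limb, NKCC2 takes up sodium, potassium and chloride from the urine, and in the distal convoluted tubule NCC takes up sodium with chloride. Further along, in the connecting tubule and collecting duct, ENaC, built from alpha, beta and gamma subunits, lets sodium enter under the control of aldosterone. WNK kinases switch on SPAK and its relative OSR1, which phosphorylate NKCC2 and NCC, while the ligase NEDD4-2, made from Nedd4l, removes ENaC from the membrane and is held back by SGK1. Much of this control acts on proteins, through phosphorylation and ubiquitination. The libraries measure transcripts only.

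RefSeq windows of 250 bases before a start site (build GRCm38.p6) were matched by symbol for 8 of the 10 genes: Scnn1b, Scnn1g, Slc12a1, Slc12a3, Wnk1, Wnk4, Stk39 and Sgk1. Shown first are the windows of the neighbouring channel genes Scnn1g and Scnn1b, whose transcripts were both higher in KC-Tie2 kidneys. Sgk1 is a textbook target of corticosteroid receptors, and 1 of its 6 windows follows, that with the palindrome described next. Capitals mark matches on either strand to GGGCGG (the GC box), to TGTTCT (a half-site of the glucocorticoid and mineralocorticoid receptors) and to the palindrome of AGAACA and TGTTCT set 3 bases apart, which contains that half-site on both strands.
Scnn1g, chr7:121734229-121734478, plus strand: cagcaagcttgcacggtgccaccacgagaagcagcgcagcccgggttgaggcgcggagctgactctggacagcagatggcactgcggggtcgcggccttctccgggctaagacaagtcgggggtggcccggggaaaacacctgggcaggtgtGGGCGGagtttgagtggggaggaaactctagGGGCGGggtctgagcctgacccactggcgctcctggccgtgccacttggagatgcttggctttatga
Scnn1b, chr7:121864788-121865037, plus strand: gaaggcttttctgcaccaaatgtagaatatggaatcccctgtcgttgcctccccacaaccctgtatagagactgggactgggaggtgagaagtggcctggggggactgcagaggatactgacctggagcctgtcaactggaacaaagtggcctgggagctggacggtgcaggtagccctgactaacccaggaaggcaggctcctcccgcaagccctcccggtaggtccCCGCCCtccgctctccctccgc
Sgk1, chr10:21993640-21993889, plus strand: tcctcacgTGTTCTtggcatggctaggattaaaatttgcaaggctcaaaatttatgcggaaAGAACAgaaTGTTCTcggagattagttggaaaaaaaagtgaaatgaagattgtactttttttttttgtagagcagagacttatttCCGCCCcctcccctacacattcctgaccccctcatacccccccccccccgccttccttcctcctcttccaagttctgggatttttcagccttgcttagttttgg
None of these 3 windows overlapped an exon of the GENCODE M21 annotation. The Scnn1g window held the GC box at -98 and at -67, counted from the start site, and the Scnn1b window held 1 match on the other strand. The TATA box (TATAAA), the HNF1 half-site (GTTAAT) and the palindromic grainyhead-like site were also searched and had no match in these 3 windows. GC boxes were found in 32.7% of all 32851 windows of this length, and half-sites in 16.1%. Neither channel window held a half-site. The palindrome was found in 3 of the 32851 windows, and 1 of these is the Sgk1 window, where it lies at chr10:21993701-21993715, 951 bases before the start site that is farthest downstream among those listed for Sgk1. The other Sgk1 windows held no palindrome. Because the window shown is that with the match, its match is no independent support for a receptor site. A match to letters is a description of the sequence and does not show that a receptor binds there.

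Gene values are normalized counts, the authors' counts scaled by library, given for replicates 1 to 3 of each genotype. A log2 fold change is KC-Tie2 minus Control on the log2(value + 1) scale, with its standard error (SE) and a limma p-value adjusted by Benjamini-Hochberg over all genes tested. A gene was called, and is said to have risen or fallen, at an adjusted p under 0.05. The estimated total was 18843648 to 29511920 counts per library, and the fewest estimated counts behind any member value were about 545 (Stk39 in Control replicate 3), a counting error of 4.3%. Coordinates of genes are those of the deposited table on mm39. Of the 10 members 2 rose and 0 fell, while 1.69% of all genes tested were called (0.855% higher and 0.838% lower). A further 3 members had all KC-Tie2 libraries above all Control libraries without being called, so 5 of 10 did not overlap in the upward direction, beside 9.96% of all genes (20.0% in either direction). An unadjusted limma p under 0.05 was reached by 6 members, all higher, beside 7.57% of all genes that were higher at this level and 15.3% in either direction. The median log2 fold change was 0.34 over the members and 0.0012 over all genes tested. The plots of normalized counts by library and of the fitted differences show these values.

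**Figure D1:**
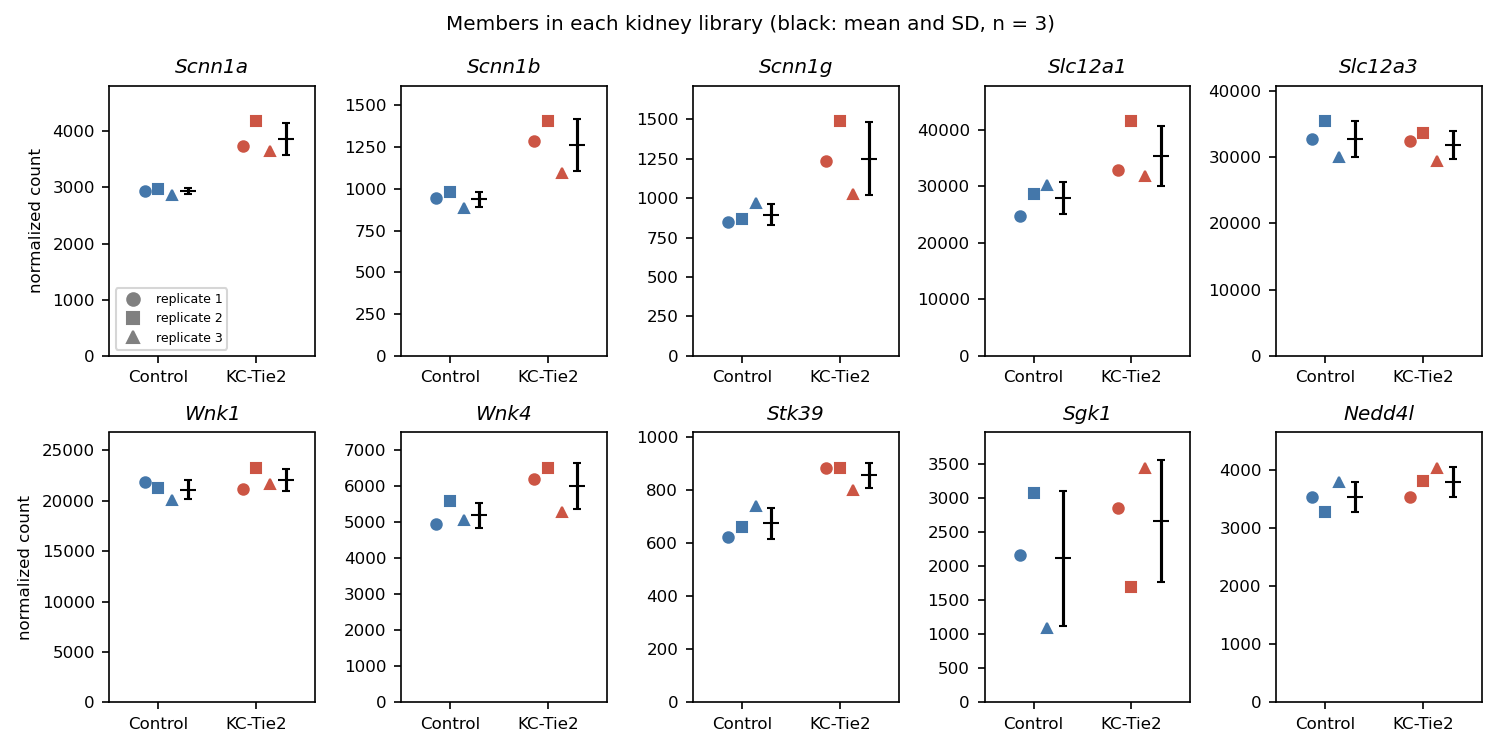
Normalized counts (vertical axes, from 0) of the 10 members in each library, with Control in blue, KC-Tie2 in red, a symbol for each replicate number, and the mean and SD (n = 3) in black. The KC-Tie2 points lie above all Control points for Scnn1a, Scnn1b, Scnn1g, Slc12a1 and Stk39, overlap them for Slc12a3, Wnk1, Wnk4 and Nedd4l, and are widely spread in both genotypes for Sgk1.

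All 3 ENaC subunit transcripts were higher in KC-Tie2 kidneys, by 1.31-fold for Scnn1a, 1.34-fold for Scnn1b and 1.38-fold for Scnn1g, and Scnn1a and Scnn1b rose. Scnn1a encodes the alpha subunit, which is needed for a working channel (ENSMUSG00000030340, chromosome 6, 125297622 to 125321906). It measured 2938, 2980.6 and 2872 in Control and 3743, 4179.6 and 3653 in KC-Tie2 libraries. The Control libraries lay close together, and every KC-Tie2 library was well above them. The means were 2930.4 ± 54.5 and 3858 ± 282 (SD, n = 3), a log2 fold change of 0.39 ± 0.071 (SE, limma adjusted p = 0.021).

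Scnn1b encodes the beta subunit (ENSMUSG00000030873, chromosome 7, 121464261 to 121517737). Its values were 943, 979.5 and 888 in Control and 1286, 1404 and 1093 in KC-Tie2 libraries. The groups did not overlap, and KC-Tie2 replicate 3 was the closest to Control (log2 fold change 0.42 ± 0.092 SE, limma adjusted p = 0.0444). The gamma subunit gene Scnn1g (ENSMUSG00000000216, chromosome 7, 121333702 to 121367698) lies upstream of Scnn1b on the same strand, with 96.6 kb between them. It had 847, 869 and 970.1 in Control and 1235, 1488 and 1029 in KC-Tie2 libraries. Its estimate was the highest of the 10 members, at 0.47 ± 0.12 (SE), but KC-Tie2 replicate 3 stood near Control replicate 3, and the gene was not called (limma adjusted p = 0.106). The order of the 3 KC-Tie2 libraries was the same for each subunit, with replicate 2 highest and replicate 3 lowest. In the authors' deposited table Scnn1a (FDR 0.000196), Scnn1b (FDR 0.00691) and Scnn1g (FDR 0.00978) were all under 0.05, with ratios of 1.32, 1.34 and 1.4. Scnn1b overlaps the gene Cog7 on the other strand (1026 and 1044 between the group means), and whether counting used strand was not stated in the sources used here.

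The calls depended on single libraries. No member was called by limma when Control replicate 1, Control replicate 3, KC-Tie2 replicate 1 or KC-Tie2 replicate 2 was left out, where 4 or 5 members still had an unadjusted p under 0.05. Leaving out Control replicate 2 kept Scnn1a and Scnn1b called, and leaving out KC-Tie2 replicate 3 added Scnn1g and Stk39 to them. The estimates moved less than the calls: over these 6 fits the log2 fold change ran from 0.34 to 0.43 for Scnn1a, from 0.34 to 0.52 for Scnn1b and from 0.33 to 0.60 for Scnn1g.

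Of the cotransporters, NKCC2 transcripts were higher in every KC-Tie2 library, and NCC transcripts were not. Slc12a1 (ENSMUSG00000027202, chromosome 2, 124994425 to 125071922) measured 24781, 28662 and 30289.5 in Control and 32896, 41527 and 31881 in KC-Tie2 libraries. The groups did not overlap, though KC-Tie2 replicate 3 exceeded Control replicate 3 by little, and most of the spread came from KC-Tie2 replicate 2. The log2 fold change was 0.34 ± 0.11 (SE), a fold of 1.26 that was not called (limma adjusted p = 0.171). When KC-Tie2 replicate 2 was left out it was 0.22 (limma adjusted p = 0.504). The authors' deposited table gives Slc12a1 a ratio of 1.27 and an FDR of 0.0451. An lncRNA, Gm14002, overlaps it on the other strand at 379.5 and 402.9 between the group means.

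Slc12a3 (ENSMUSG00000031766, chromosome 8, 95055829 to 95092842) measured 32711, 35423 and 30053 in Control and 32438, 33585 and 29442 in KC-Tie2 libraries, so the groups lay over one another. Its log2 fold change was -0.040 ± 0.088 (SE, limma adjusted p = 0.885), with a 95% interval from -0.23 to 0.15, and the sign turned under quantile normalization (0.095), in the fit that left out Control replicate 2 (0.019) and in that leaving out KC-Tie2 replicate 3 (0.015). That interval, unadjusted, leaves out rises of the size estimated for Slc12a1 or for any ENaC subunit. In the authors' deposited table Slc12a3 had a ratio of 0.972 and an FDR of 0.948.

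**Figure D2:**
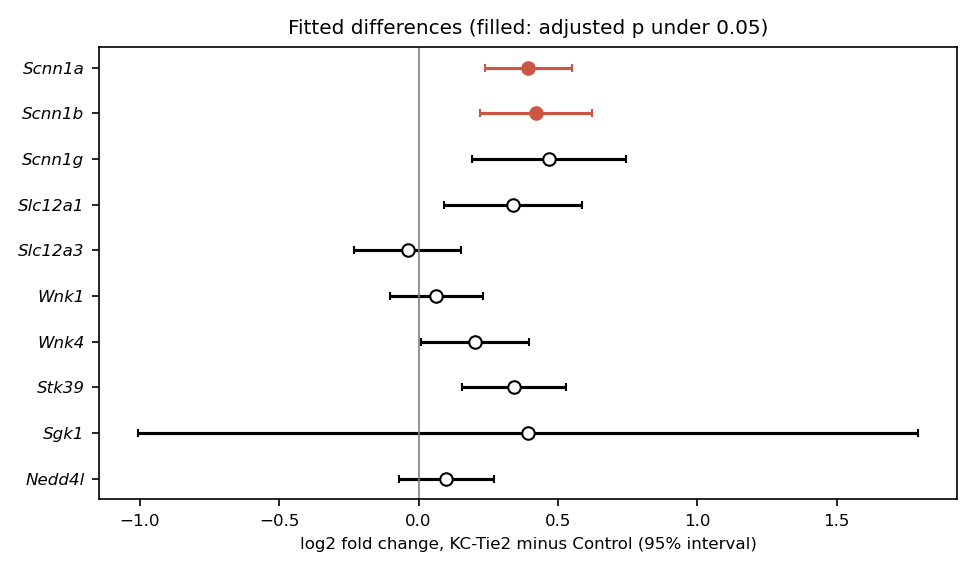
Fitted log2 fold change (horizontal axis, KC-Tie2 minus Control) of each member with its 95% interval, filled in red where the adjusted p was under 0.05. Scnn1a and Scnn1b are filled at 0.39 and 0.42, Slc12a3 sits at -0.040, and Sgk1 has the widest interval, from -1.01 to 1.79.

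Among the kinases, Stk39 had the smallest p-value. Stk39 encodes SPAK, the kinase that phosphorylates NCC and NKCC2 (ENSMUSG00000027030, chromosome 2, 68040789 to 68302612). It had 623, 662 and 737 in Control and 880.5, 883 and 799 in KC-Tie2 libraries. All KC-Tie2 libraries were above all Control libraries, by a log2 fold change of 0.34 ± 0.085 (SE, 1.27-fold, limma adjusted p = 0.0721), and the gene was not called. The authors' deposited table gives Stk39 a ratio of 1.27 and an FDR of 0.0471. Oxsr1, which encodes the related kinase OSR1, had a log2 fold change of -0.049 (limma adjusted p = 0.798).

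Wnk4, a kinase of the distal convoluted tubule in which mutations cause familial hyperkalaemic hypertension (ENSMUSG00000035112, chromosome 11, 101151393 to 101168235), measured 4953, 5592 and 5055 in Control and 6207, 6519.6 and 5282 in KC-Tie2 libraries. KC-Tie2 replicates 1 and 2 were above every Control library and replicate 3 was below Control replicate 2 (log2 fold change 0.20 ± 0.088 SE, limma adjusted p = 0.3). An lncRNA, Gm11615, overlaps Wnk4 on the other strand, at 88.8 and 82.5 between the group means. Wnk1 also makes a short kidney-specific form that lacks most of the kinase domain, and the gene-level value does not separate the forms. It (ENSMUSG00000045962, chromosome 6, 119900930 to 120015633) had 21910.4, 21314 and 20079 in Control and 21150.0, 23292 and 21711 in KC-Tie2 libraries, with overlapping groups. Its log2 fold change was 0.063, with a 95% interval from -0.10 to 0.23 (limma adjusted p = 0.77).

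Sgk1, the corticosteroid-induced kinase that restrains NEDD4-2 (ENSMUSG00000019970, chromosome 10, 21758083 to 21875802), varied more between libraries of the same genotype than any other member. It measured 2161, 3078 and 1099 in Control and 2849, 1689 and 3442 in KC-Tie2 libraries. The highest library was KC-Tie2 and the lowest Control, with the others interleaved. The log2 fold change was 0.39 ± 0.52 (SE, limma adjusted p = 0.803), with a 95% interval from -1.01 to 1.79, and it was -0.017 without Control replicate 3. At this spread a difference as large as that of the ENaC subunits was not detectable. Nedd4l (ENSMUSG00000024589, chromosome 18, 65020776 to 65350899) had 3539, 3281 and 3805 in Control and 3531, 3810.2 and 4044 in KC-Tie2 libraries. The groups overlapped, and its log2 fold change was 0.10 with a 95% interval from -0.071 to 0.27 (limma adjusted p = 0.608). The lncRNA genes A330084C13Rik and Gm50368 overlap Nedd4l on the other strand, at 52.2 or less in either group.

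Other corticosteroid-responsive transcripts were set beside Sgk1 library by library. Tsc22d3, the glucocorticoid-induced leucine zipper gene, had 1542, 1234 and 981 in Control and 1240.2, 624 and 1624 in KC-Tie2 libraries. Per1, a clock gene that corticosteroids induce, had 1449, 1466 and 1187 in Control and 1441, 1202 and 2135 in KC-Tie2 libraries. In both, as in Sgk1, replicate 3 was the lowest Control library, but this was not general to the list. Control replicate 2 was the lowest Control library for the targets Fkbp5, Zbtb16 (1863, 568 and 1656 in Control), Dusp1 (1535, 1017 and 1239) and Klf9 (6204, 5250.2 and 6241). Fkbp5 had 2997, 1270.2 and 2161 in Control and 2073, 2039.8 and 2578 in KC-Tie2 libraries. The KC-Tie2 values were 1784, 1144 and 1217 for Zbtb16, 1401, 865 and 1091 for Dusp1, and 5491.5, 5059 and 6309 for Klf9. Among the KC-Tie2 libraries, replicate 2 was thus the lowest for Sgk1 and for each of these targets.

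Ratios between members within a library do not depend on how libraries were scaled. The log2 ratio of Slc12a3 to Slc12a1 was 0.40, 0.31 and -0.011 in Control and -0.020, -0.31 and -0.11 in KC-Tie2 libraries. All KC-Tie2 libraries were below all Control libraries, narrowly at Control replicate 3 and KC-Tie2 replicate 1, and the means differed by -0.38 (two-sided exact permutation p = 0.1, the smallest that 3 against 3 allows, and 0.6 adjusted over the 6 ratios). For the ENaC subunits the differences in ratio were smaller than the spread between libraries, and with 3 against 3 no shift could have passed the test. The log2 ratio of Scnn1a to Scnn1g ran from 1.57 to 1.79 in Control and from 1.49 to 1.83 in KC-Tie2 libraries. The difference between the genotypes was -0.074 for the log2 ratio of Scnn1a to Scnn1g (exact permutation p = 0.7), -0.046 for Scnn1b to Scnn1g (p = 0.6) and -0.027 for Scnn1a to Scnn1b (p = 0.7), each 0.7 when adjusted, with overlapping groups. The ratio of Wnk4 to Wnk1 differed by 0.14 (exact permutation p = 0.3) and that of Sgk1 to Nedd4l by 0.29 (exact permutation p = 0.7), again with overlap and 0.7 when adjusted.

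**Figure D3:**
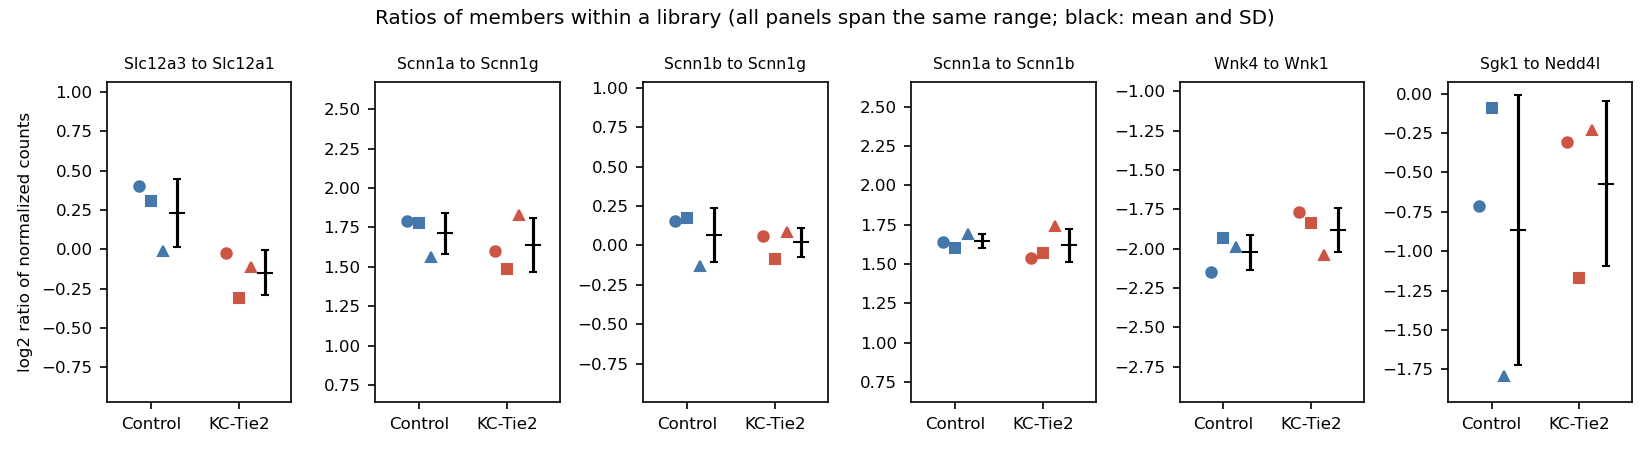
Log2 ratio of normalized counts (vertical axes, all of the same span) for 6 pairs of members in each library, Control in blue and KC-Tie2 in red, with a symbol for each replicate number and the mean and SD (n = 3) in black. The genotypes separate only for Slc12a3 to Slc12a1 (means of 0.23 and -0.15), and the ratio of Sgk1 to Nedd4l is the most spread.

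Levels of different genes were compared per kilobase of the transcript with the longest coding sequence in GENCODE M21. In Control kidneys Slc12a3 stood at 9921 ± 814 and Slc12a1 at 5888 ± 597 normalized counts per kb (SD, n = 3), above every other member, and Stk39 was the lowest at 190.6 ± 16.5. Among the channel subunits Scnn1a had 837.5 ± 15.6, Scnn1b 378 ± 18.7 and Scnn1g 299.3 ± 22 normalized counts per kb. The order of the 10 members by mean was the same in KC-Tie2 kidneys. Neighbours in the order whose Control libraries overlapped were Wnk4 (1263 ± 83.4) with Nedd4l (1167 ± 86.2), Scnn1a with Sgk1 (682 ± 320.0), and Sgk1 with Scnn1b. Dividing by the union of all annotated exons put Slc12a1 (4843) ahead of Slc12a3 (2944) per kb and moved Nedd4l from position 5 to 9, so those places rest on the length used. The order Scnn1a, Scnn1b, Scnn1g and the lowest place of Stk39 held with both lengths.

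The members are expressed in particular segments, and markers of those segments also moved. In bulk tissue, fewer cells of a type and less RNA per cell cannot be told apart. Each segment list held 10 markers, all 10 tested and none at 0. Over all genes tested, 50.3% were above 0. Of the distal convoluted tubule markers 9 of 10 were above 0 and 2 rose: the magnesium channel gene Trpm6 (log2 fold change 0.37, limma adjusted p = 0.0309) and the calcium-binding protein gene Calb1 (0.86, limma adjusted p = 0.0106). Pvalb, the parvalbumin gene, was at 0.22 (limma adjusted p = 0.410). Their summed level was 43260 to 47140 in Control and 54410 to 63680 in KC-Tie2 libraries. Thick ascending limb markers were above 0 in 8 of 10 (summed level 119000 to 127500 and 130800 to 155400), with the uromodulin gene Umod at a log2 fold change of 0.17 and the claudin gene Cldn16 at -0.12 (limma adjusted p = 0.468 and 0.821). Principal cell markers were above 0 in 9 of 10 (14890 to 18750 and 20260 to 23970), with the water channel genes Aqp2 at 0.86 and Aqp3 at 0.28 (limma adjusted p = 0.254 and 0.179). Intercalated cell markers, of cells that carry little ENaC, were above 0 in 10 of 10 (9866 to 10960 and 10910 to 12630), with the proton pump genes Atp6v1g3 at 0.30 and Atp6v0d2 at 0.083 (limma adjusted p = 0.145 and 0.701). The lowest of these 10 was at 0.00027. Proximal tubule markers were below 0 in 9 of 10 (550300 to 655600 and 411700 to 512600), with the megalin gene Lrp2 at -0.20 and the cubilin gene Cubn at -0.065 (limma adjusted p = 0.337 and 0.788). Quantile normalization turned both, to 0.035 for Lrp2 and 0.037 for Cubn. Larger differences in this list, without overlap, were those of the androgen-regulated gene Kap (-0.98), the fatty acid transporter gene Slc27a2 (-0.41) and the organic anion transporter genes Slc22a8 (-0.38) and Slc22a6 (-0.37), with limma adjusted p of 0.107, 0.0684, 0.0649 and 0.119. Summed levels give most weight to abundant genes, and single genes made much of these differences. The Control and KC-Tie2 means were 178565 and 91204.5 for Kap, beside 608000 and 459100 for its list. They were 3794 and 6778 for Aqp2, beside 16840 and 22240 for principal cells. Calb1 had 6809 and 12367, beside 45600 and 58100 for the distal convoluted tubule. With limma, 0 markers of the 4 lists other than the distal convoluted tubule were called, beside 1.69% of all genes. An unadjusted limma p under 0.05 was reached by 5 distal convoluted tubule, 4 thick ascending limb, 5 principal cell and 6 intercalated cell markers, all higher. Of the 7 proximal tubule markers at this level, 1 was higher and 6 were lower. Over all genes 7.57% were higher and 7.77% lower at this level. The authors' deposited table has markers with an FDR under 0.05 in each of those lists: Ptger3 (ratio 1.56, FDR 6.34e-05) for the thick ascending limb, Avpr2 (1.47, 0.0191) for principal cells and Rhcg (1.22, 0.0278) for intercalated cells. For the proximal tubule the authors' deposited table has 4 lower (Slc22a6, Slc22a8, Slc27a2 and Kap) and 1 higher (Slc5a12). For the distal convoluted tubule it has 5 higher (Trpm6, Calb1, Cnnm2, Slc8a1 and Slc16a7) and 0 lower. Over all genes it has 1.83% higher and 2.08% lower.

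The part of these marker differences in the members' differences was not tested, but the levels can be set beside each other. The mean log2 level of the distal convoluted tubule markers was higher by 0.28 in KC-Tie2 kidneys, that of the thick ascending limb markers by 0.18 and that of the principal cell markers by 0.29. The groups did not overlap for the first 2 of these, and they overlapped for the principal cell markers, where Control replicate 2 (0.24) was above KC-Tie2 replicate 3 (0.20). Relative to the mean of the distal convoluted tubule markers in the same library, Slc12a3 was lower in all 3 KC-Tie2 libraries, at -0.24, -0.33 and -0.38 from the Control mean, where the Control libraries were at -0.028, 0.12 and -0.090. Wnk1 was lower by the same measure, at -0.23, -0.23 and -0.19 against 0.025, 0.016 and -0.041 in Control. Both gaps depend on the markers used. Log2 fold changes in that list ran from -0.036 for Sgms2, through 0.082 for Tmem52b and 0.12 for Emx1, to 0.86 for Calb1. Wnk4 and Stk39, set against the same markers, differed by -0.073 and 0.067 with overlapping groups. Slc12a1 was higher relative to the thick ascending limb markers by 0.16, with Control replicate 3 (0.079) close below KC-Tie2 replicate 3 (0.096). Relative to the principal cell markers Scnn1a, Scnn1b and Scnn1g differed by 0.11, 0.13 and 0.18, and the groups overlapped for each. These comparisons with marker means were chosen after the values were seen and are given without a test.

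**Figure D4:**
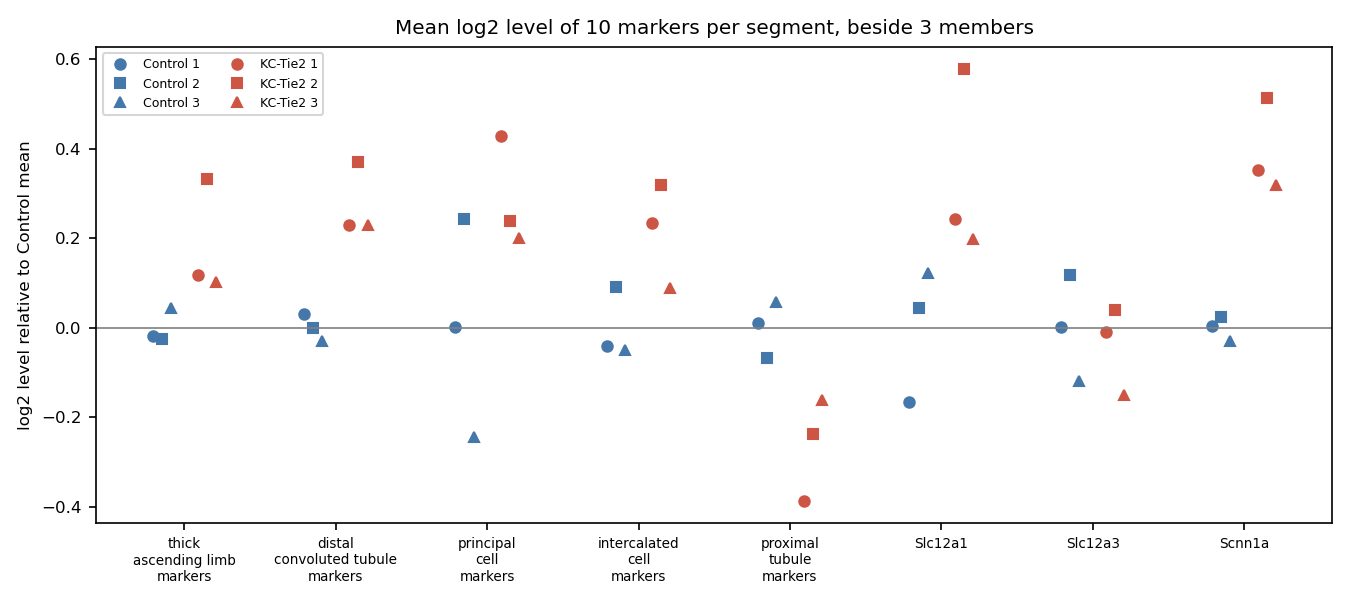
Mean log2 level of 10 markers for each of 5 kidney tubule segments or cell types, and log2 level of 3 members, in each library relative to the Control mean (vertical axis), with Control in blue, KC-Tie2 in red and a symbol for each replicate number. Distal convoluted tubule markers, Slc12a1 and Scnn1a are above 0 in all 3 KC-Tie2 libraries and above every Control library, proximal tubule markers are below (mean difference -0.26), and Slc12a3 overlaps.

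A list of 14 markers of podocytes, endothelium, stroma, leukocytes and blood had 12 tested members. Of these 10 were above 0 and 0 were called, beside 50.3% and 1.69% of all genes. Their summed level was 8889 to 10170 in Control and 9822 to 14020 in KC-Tie2 libraries, with means of 9429 and 11860. Globin genes made part of this difference. The Control and KC-Tie2 means were 541 and 1049 for Hba-a1, and 643 and 1089 for Hbb-bs. Hba-a1 was widely spread, at 1615, 250 and 1280 in the KC-Tie2 libraries. The endothelial genes Pecam1 and Cdh5 had log2 fold changes of -0.012 and -0.032. The podocyte gene Nphs1 had a log2 fold change of 0.34 (limma adjusted p = 0.128). Ptprc, the pan-leukocyte marker CD45, was at 0.014 (limma adjusted p = 0.974).

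None of the 11 listed partners of the WNK kinases was called. Of these, 0 passed with limma or with voom, beside 1.69% of all genes with limma. At that share a list of 11 genes may well hold 0 calls, so the count does not set it apart. At an unadjusted limma p under 0.05, 1 was higher and 1 lower, beside 7.57% and 7.77% of all genes. The median log2 fold change was 0.032. The one higher was Ppp1r1a, an inhibitor of protein phosphatase 1 (0.24 ± 0.1 SE, limma adjusted p = 0.273), and the one lower was Cul3, the scaffold of the ligase that degrades WNK kinases (-0.15 ± 0.068 SE, limma adjusted p = 0.308). Klhl3, the adaptor through which that ligase binds WNK kinases, had a log2 fold change of 0.15 (limma adjusted p = 0.346). By the authors' deposited table, an FDR under 0.05 was reached by 0 of the 11 WNK partners and by 5 of the 10 members, all higher (Scnn1a, Scnn1b, Scnn1g, Slc12a1 and Stk39). Over all genes the authors' deposited table has 3.91% under 0.05, 1.83% higher and 2.08% lower.

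Among 16 tested regulators and proteases of ENaC 0 were called with limma or voom, and 0 were under 0.05 in the authors' deposited table. At the unadjusted level 2 were higher and 1 lower (limma p under 0.05), beside 7.57% and 7.77% of all genes. The median log2 fold change was -0.026. The Control and KC-Tie2 values of Spint1, an inhibitor of serine proteases, were 1433 ± 16.2 and 1640.2 ± 30.1 (SD, n = 3, limma adjusted p = 0.15). St14, the protease matriptase, had a log2 fold change of 0.27 ± 0.097 (SE, limma adjusted p = 0.21). Without Control replicate 2, 1 gene of this list was called. Prss8 and Furin, whose proteases cleave and activate ENaC, had log2 fold changes of -0.097 and -0.065 (limma adjusted p = 0.695 and 0.726).

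Of 10 corticosteroid receptors and targets 0 were called with limma or voom, beside 1.69% of all genes with limma. At an unadjusted limma p under 0.05, 1 was higher and 1 lower, beside 7.57% and 7.77% of all genes. The median log2 fold change was 0.027. Hsd11b2, the enzyme that keeps glucocorticoids off the mineralocorticoid receptor in cells with ENaC, had 3429.9, 3224 and 3443 in Control and 3990.3, 4368 and 3665 in KC-Tie2 libraries. The groups did not overlap (log2 fold change 0.25 ± 0.077 SE, limma adjusted p = 0.14). Hsd11b1, which regenerates active glucocorticoid, had 1348, 1205 and 2273 in Control and 796, 619 and 886 in KC-Tie2 libraries, again without overlap (log2 fold change -1.03 ± 0.29 SE, limma adjusted p = 0.208). The authors' deposited table gives Hsd11b1 a ratio of 0.477 and an FDR of 0.0383. Nr3c2, the mineralocorticoid receptor gene, had a log2 fold change of 0.13 with overlapping groups (limma adjusted p = 0.543).

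Of 19 transporters and channels that work with the members along the tubule, 0 were called with limma or voom, beside 1.69% of all genes with limma. At an unadjusted limma p under 0.05, 6 were higher and 3 lower, beside 7.57% and 7.77% of all genes. When either Control replicate 2 or KC-Tie2 replicate 3 was left out, 2 genes of this list were called.

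KC-Tie2 replicate 2 was the highest KC-Tie2 library at 8 of the 10 members, and KC-Tie2 replicate 3 the lowest at 7. Over all genes 297 were called, and this number was 48 to 69 without Control replicate 1, Control replicate 3, KC-Tie2 replicate 1 or KC-Tie2 replicate 2, 530 when Control replicate 2 was left out and 682 when KC-Tie2 replicate 3 was. Across genes, any pair of libraries had a Spearman correlation of 0.981 to 0.991.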

How the data were processed

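Poly(A)-selected RNA of 3 Control and 3 KC-Tie2 kidneys was analysed from the deposited tables. Columns were matched to samples by library name, and groups follow the sample titles. The deposited values are a signal, normalized counts: in each library 68.5% to 70.8% of values under 60 were multiples, within 0.01, of 1 library-specific step, so whole reads were not recovered, and values divided by that step give the estimated counts. Per the submitters' processing notes the authors used Partek 12.5.0, STAR and DESeq2 with mm39, without stated roles, annotation release or strand setting. Per the file headers, a further deposited table has for each gene a p-value and FDR, the ratio of KC-Tie2 to WT, a signed fold score and model means, and was not retested. The table's gene end was read as 1 base before the listed stop.

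Genes with a mean of at least 10 were tested on log2(value + 1) with limma 3.58.1 in R 4.3.3 (lmFit by genotype, then robust eBayes with a mean trend), which was tested on simulated data. Every limma adjusted p comes from that fit over all genes, except where a library is said to be left out. Adjusted p-values of the ratios are over their 6 permutation tests, and FDR values are those of the authors' table. The named genes were the 10 members, up to 4 called genes of each companion list or else the 2 with the smallest p, and the leading markers of each cell list. Some genes that this rule names are not reported here. Oxsr1, Klhl3, Prss8, Furin, Tsc22d3, Per1, Fkbp5, Zbtb16, Dusp1, Klf9, Nr3c2, Calb1, Ptprc, Ptger3, Avpr2, Rhcg, Slc5a12, Slc22a6, Slc22a8, Slc27a2 and Kap fall outside that rule; they were picked once their values had been seen. The same holds for Cnnm2, Slc8a1, Slc16a7, Emx1, Sgms2, Tmem52b, Hba-a1, Hbb-bs, Pecam1 and Cdh5. The members and lists were chosen with earlier results of these data known. Descriptions and figures were made in Python 3.11.15 (numpy 2.4.6, pandas 2.3.3, matplotlib 3.10.9).

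Each fit was repeated with a pseudocount of 0.5 or 5, with the filter dropped or raised to 100, after TMM scaling (own code) or quantile normalization, with a replicate block, with non-robust eBayes, with voom, and leaving out each library.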

Additional observations from a re-analysis of the deposited data

How the results depend on the processing

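Over the 15 alternatives, 8 of the 10 members kept the sign of their log2 fold change; Slc12a3 and Sgk1 did not. Scnn1a was called in 11 alternatives, Scnn1b in 9, Scnn1g and Stk39 in 1 each and the other members in 0. The number of members called higher was 1 with eBayes without robust (Scnn1a) and 1 with voom (Scnn1a), and 0 to 4 with a library left out; the cause was not tested. Over all genes 581 were called with the replicate block, and 48 to 682 with a library left out. With the replicate block 1 corticosteroid gene and 1 partner transporter were called, and no member's call changed. With quantile normalization 1 partner transporter was called, and Slc12a3, Lrp2 and Cubn turned to 0.095, 0.035 and 0.037 on the log2 scale. With a library left out, called genes numbered 0 to 1 among ENaC regulators and 0 to 2 among partner transporters, and log2 fold changes ran from -0.099 to 0.019 for Slc12a3, -0.017 to 0.73 for Sgk1 and -0.11 to 0.0023 for Cubn. In the same fits the difference in log2 ratio ran from -0.17 to 0.0010 for Scnn1a to Scnn1g, -0.14 to 0.0069 for Scnn1b to Scnn1g, -0.088 to 0.011 for Scnn1a to Scnn1b and -0.17 to 0.68 for Sgk1 to Nedd4l, so their directions are not settled. The labels do not say whether replicate numbers pair the samples. Deviations from the group means correlated at 0.178, -0.0956 and 0.0173 for like numbers 1 to 3, and at -0.283 to 0.26 for unlike numbers. With 3 libraries per group these values can neither show nor exclude a pairing, so the block is given only as an alternative. The fewest estimated counts behind a member value were about 545, a counting error of 4.3%.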
